A study of Mus musculus with 12 samples.

Results

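The genes that encode collagen chains were read across 12 left ventricular RNA libraries of mice, 3 in each of 4 groups. A gene was a member when its symbol in the deposited count table had the form Col, a number, the letter a and a number. This gave 44 genes of 53465 in the table: 11 chains of fibrillar collagens, 6 chains of type IV (basement membrane) collagen and 27 other chains. Of these, 35 passed the filter on low counts and entered the tests, 9 fibrillar, 6 type IV and 20 other chains, among 16101 tested genes. The mice were male and 8 weeks old at the start. A17fl/fl mice carried floxed Adam17 alleles on a C57BL/6J background, and their A17α-MHCKO littermates carried the same alleles with α-MHC-Cre, which excises exon 2 of Adam17 in cardiomyocytes and leaves the gene floxed in the other cells of the heart. Doxorubicin (DOX), an anthracycline, was injected into the peritoneum at 5 mg/kg on 4 occasions a week apart (20 mg/kg in all), and control mice received an equal volume of normal saline (NS). Hearts were taken 4 weeks after the last injection. The design asks what doxorubicin changes in A17fl/fl mice and in A17α-MHCKO mice, how the genotypes differ after saline and after doxorubicin, and whether the response differs between them (the interaction).

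Collagens are triple helices of chains that are wound together in the endoplasmic reticulum, modified on proline and lysine, secreted and assembled outside the cell. In the heart, fibroblasts supply most of the fibrils, in which type I and type III collagen carry the load and type V collagen seeds the fibril. Type IV collagen forms the sheet-like network of the basement membrane around cardiomyocytes and capillaries, type VI makes beaded filaments beside it, and types XV and XVIII are bound to basement membranes as proteoglycans. Cardiac fibrosis is commonly read from the transcripts of Col1a1 and Col3a1.

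All tests were edgeR's quasi-likelihood test in 1 model of the 4 groups; changes are log2 fold changes with their standard error (SE), adjusted p-values are corrected over all tested genes, and a gene is said to have passed when its unadjusted p was under 0.05, the threshold of the study. Adam17, the targeted gene, was read first. Its normalised counts (CPM, read counts scaled to library size with TMM factors) were 70.9, 48.7 and 43.6 CPM in A17fl/fl + NS, 48.1, 53.2 and 48.4 in A17fl/fl + DOX, 35.3, 34.9 and 34.2 in A17α-MHCKO + NS and 27.9, 36.8 and 32.2 in A17α-MHCKO + DOX. Every A17α-MHCKO library was below every A17fl/fl library. The log2 change with genotype over both treatments was -0.64 (SE 0.12, unadjusted p = 0.000294, adjusted p = 0.446), and -0.52 (SE 0.09, unadjusted p = 7.39e-05) without A17fl/fl + NS replicate 1. Library totals ran from 15950717 to 21725076 counts. On the first principal component, A17fl/fl + NS replicate 1 lay at -120, whereas all remaining libraries lay between -12.9 and 28.4. Calls of named genes in comparisons that hold this library are followed by their value or call without it. In that library the 8 neutrophil markers summed to 2504 CPM, against 9.94 to 70.1 in the other 11 libraries, and the 8 macrophage markers to 2523 CPM, against 696 to 1031. All 8 markers of both lists were above the other 11 libraries. None of them was at 0 there, while the neutrophil marker Ly6g was at 0 in at least 1 other library. Its 8 cardiomyocyte markers summed to 19838 CPM, below 32205 to 45348 in the rest, with 7 of the 8 below every other library. Its 10 fibroblast markers summed to 1583 CPM, below 2580 to 3622, with 4 of the 10 above and 3 below every other library. No cardiomyocyte or fibroblast marker was at 0 in any library. Markers of tissue next to the ventricular wall also varied between libraries: the 6 atrium markers summed to 343 to 8643 CPM in the other 11 libraries, and the 7 mesothelium markers to 3.97 to 141 CPM. In A17fl/fl + NS replicate 1 these sums were 1033 and 16.5 CPM, within the ranges of the others, with the atrium markers Myl7, Sln and Bmp10 and the mesothelium markers Msln and Upk3b at 0. Sln and Bmp10 were also at 0 in other libraries, as were the mesothelium markers Upk1b, Lrrn4 and Krt19. The part of these tissues and cells in the collagen values was not tested, and in these bulk samples fewer cells of a type and less RNA per cell cannot be told apart. The labels do not say more of the 3 mice in a group, so that p-values measure the spread between these libraries.

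**Figure D1:**
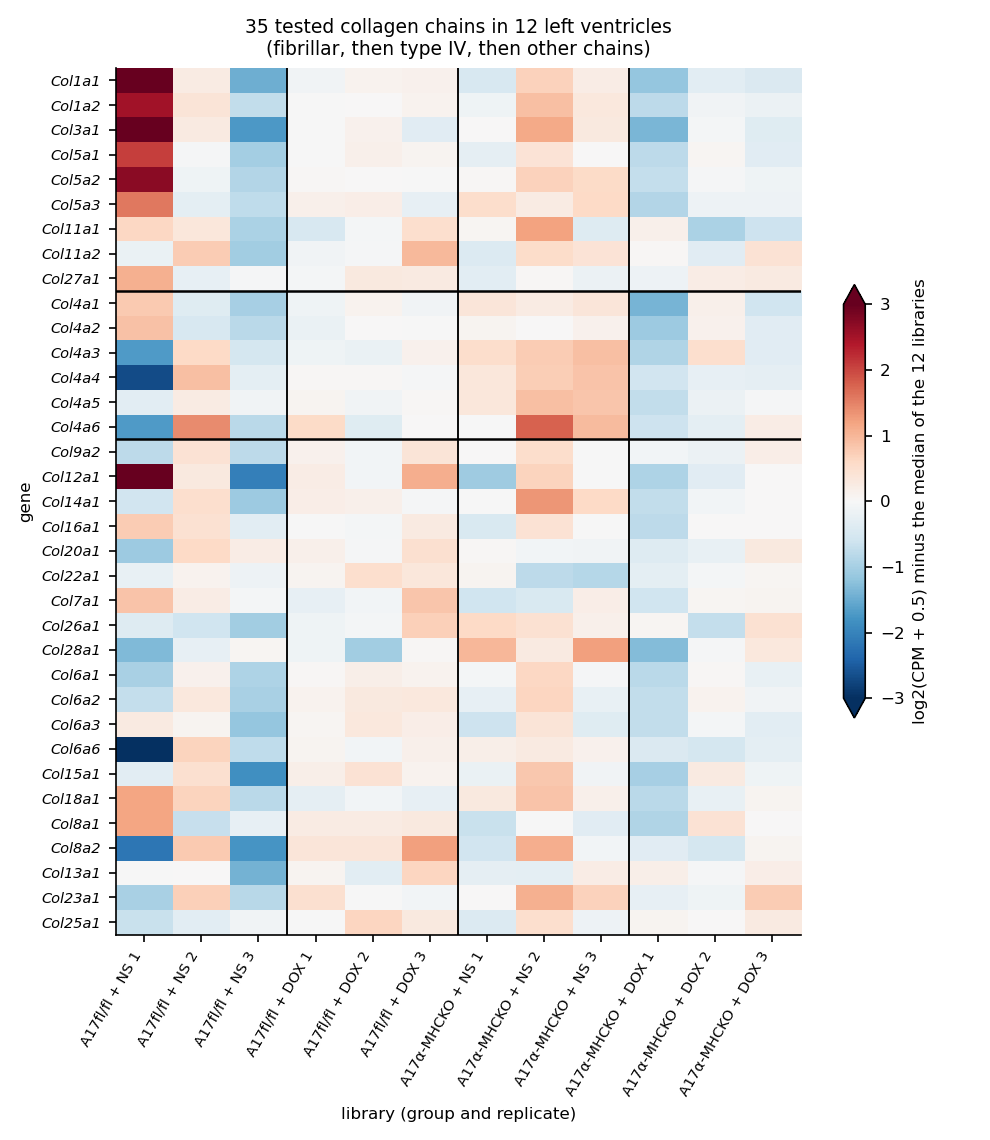
Heat map of the 35 tested collagen chains (rows, by class) in the 12 libraries (columns, by group), coloured by log2(CPM + 0.5) minus the median of the 12 libraries for that gene. A17fl/fl + NS replicate 1 is far above the others for most fibrillar chains and for Col12a1, and far below them for Col4a4 and Col6a6. A17fl/fl + NS replicate 3 is the lowest library for 14 chains and A17α-MHCKO + DOX replicate 1 for 7.

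In FPKM, type IV and fibrillar chains led. The deposited FPKM (fragments scaled by 1 gene length and by library depth) had the highest medians over the 12 libraries for Col4a2 (68.5) and Col4a1 (64.2). These are the chains of the common basement membrane network. Col1a1 (34.0) and Col3a1 (33.1), the main fibril chains, came next, followed by Col6a1 (29.4), Col1a2 (14.4), Col6a2 (14.2), Col15a1 (13.2), Col5a1 (10.3) and Col8a1 (8.71). The ranges of neighbours in this order overlapped: Col4a2 ran from 30.7 to 132 FPKM, Col4a1 from 23.4 to 116, Col1a1 from 11.2 to 344 and Col3a1 from 9.33 to 374. Each FPKM rests on 1 fixed length per gene, which recalculation from the counts returned as 6.93 kb for Col1a1 and 16.2 kb for Col1a2. Col1a1 is thus ahead of Col1a2 in FPKM and behind it in CPM in most libraries. The order above, the class sums and the fibrillar share depend on these lengths. A further 9 chains did not enter the tests. They were Col2a1 and Col10a1 (0 to 9 counts a library), Col24a1, Col6a4 and Col19a1 (0 to 3), Col6a5 (0 to 16), Col9a1 (0 to 45), Col9a3 (2 to 13) and Col17a1 (0 to 10), among them chains known from cartilage and epithelium.

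Summed over each class, the fibrillar chains held 912, 120.3 and 39.0 FPKM in A17fl/fl + NS and 102 to 113 in A17fl/fl + DOX. They held 89.6 to 199 FPKM in A17α-MHCKO + NS and 47.8 to 91.7 in A17α-MHCKO + DOX. All other libraries lay between replicates 1 and 3 of the saline A17fl/fl group. The type IV sum was 252, 109 and 70.6 FPKM in A17fl/fl + NS, 125 to 145 in A17fl/fl + DOX, 158 to 183 in A17α-MHCKO + NS and 58.4 to 147 in A17α-MHCKO + DOX. A17α-MHCKO + NS thus lay above A17α-MHCKO + DOX for type IV chains without overlap. Collagen transcripts in all took 1.15% of the counts in A17fl/fl + NS replicate 1, 0.126% and 0.286% in the other A17fl/fl + NS libraries, and 0.129% to 0.446% in the remaining groups. Fibrillar chains made up 73.2% of the summed collagen FPKM in A17fl/fl + NS replicate 1 and 26.2% to 39.3% in the rest. These sums describe the libraries and were not tested.

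**Figure D2:**
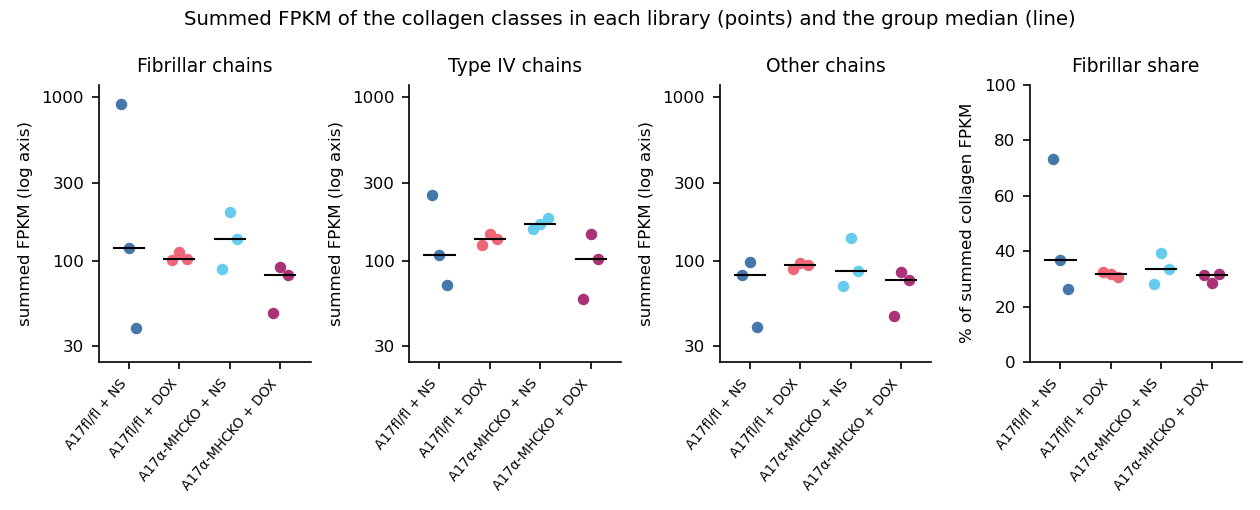
Summed FPKM (log axes) of fibrillar, type IV and other collagen chains in each library, and the fibrillar share of the summed collagen FPKM (linear axis), for the 4 groups; points are libraries, replicates 1 to 3 from left, and lines are medians. The A17fl/fl + NS points span 39.0 to 912 FPKM for fibrillar chains, and A17α-MHCKO + DOX has the lowest median in the panels of the 3 classes.

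In A17fl/fl + NS replicate 1, 7 of the 9 tested fibrillar chains were above all 11 other libraries, against 26.1% of all tested genes, and none was below them. The fibrillar chains there were 0.815 to 10.4 times the median of the others. Type IV chains divided: Col4a1 and Col4a2 were 1.85 and 1.84 times the median of the others, whereas Col4a3 (0.217 times), Col4a4 (0.119 times) and Col4a6 (0.232 times) were below every other library. Among the 20 other chains 5 were above and 7 below all other libraries, against 24.9% of all tested genes below. Col12a1, a fibril-associated chain, had 65.6 CPM in that library against 0.689 to 9.94 elsewhere, and Col6a6 had 0.404 CPM against 5.95 to 16.9. The 8 activated fibroblast markers summed to 434 CPM in that library, within the 257 to 724 of the other 11. Of the 8, 2 were above and 1 was below every other library. Cthrc1, among those above, had 25.7 CPM there against 0 to 1.25 elsewhere. The sum also holds the abundant Acta2, known from smooth muscle too, with 103 CPM there and 80.9 to 304 elsewhere. At the other end, A17fl/fl + NS replicate 3 was the lowest of the 12 libraries for 14 of the 35 chains, against 13.0% of all tested genes, and A17α-MHCKO + DOX replicate 1 for 7, against 11% of all tested genes. A17α-MHCKO + NS replicate 2 was the highest for 10 chains, against 5.48% of all tested genes. The share of counts on mitochondrial genes was 25.9% in A17fl/fl + NS replicate 3, the highest of the 12, and 17.9% in A17fl/fl + NS replicate 1, the lowest, and its part in these values was not tested.

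Across the 7 comparisons, no chain passed an adjusted p of 0.05 with edgeR, and 0 to 5 chains passed the unadjusted threshold of 0.05 that the study used. After doxorubicin in A17fl/fl mice 3 of 35 chains passed (2 higher, 1 lower), against 10.7% of all tested genes (4.11% higher, 6.58% lower). The chains' median log2 change was 0.09 and that of all tested genes -0.04. After doxorubicin in A17α-MHCKO mice 2 chains passed, both lower, against 6.42% of all tested genes (3.97% higher, 2.44% lower). In this comparison 29 of the 35 chains had a negative change, with a median of -0.51, against 7963 of the 16101 tested genes and a median of 0.00. Between genotypes after saline 5 chains passed, all higher in A17α-MHCKO, against 10.1% of all tested genes (3.61% higher, 6.53% lower), and the median was 0.31, against -0.03. Between genotypes after doxorubicin no chain passed, against 2.7% of all tested genes (1.52% higher, 1.19% lower). Here 33 of 35 chains had a negative change with a median of -0.37, against 7880 of the 16101 tested genes and a median of 0.01. The interaction passed for 4 chains, each with a response more negative in A17α-MHCKO, against 5.99% of all tested genes (3.5% more positive, 2.49% more negative). Averaged over genotypes, 5 chains were lower after doxorubicin and none higher, against 10.7% of all tested genes (5.47% higher, 5.2% lower). The genotype averaged over treatments gave 0 chains, against 6.65% of all tested genes (2.76% higher, 3.89% lower), where DESeq2 and voom each gave 1. A single chain passed an adjusted p of 0.05 by another tool, Col4a5 with DESeq2 in A17α-MHCKO mice. Without A17fl/fl + NS replicate 2, 7 of 36 chains passed it with edgeR between genotypes after saline (Col4a5, Col4a6, Col6a1, Col8a2, Col9a2, Col14a1 and Col23a1), against 4.09% of all tested genes, and Col8a2 and Col9a2 after doxorubicin in A17fl/fl mice, against 2.38%. That fit kept only replicates 1 and 3 of the group, where Col9a2 had 0 CPM in each and Col8a2 had 0.115 and 0.313 CPM. The fitted changes of Col8a2 and Col9a2 there rest on few or no counts in saline and depend on how the fit treats them. Comparisons that share a group of libraries are not independent of each other, nor are chains whose levels rise and fall together across libraries.

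The unadjusted counts rested on the saline A17fl/fl libraries. Without replicate 2 of that group, 18 of 36 chains passed between genotypes after saline, 14 higher and 4 lower in A17α-MHCKO, against 20.1% of all tested genes (8.85% higher, 11.2% lower). After doxorubicin in A17fl/fl mice 15 passed in that fit, 11 higher and 4 lower, against 20.8% (9.07% higher, 11.7% lower). The interaction passed for 13, all more negative in A17α-MHCKO, against 14.3% (7.11% more negative). In A17α-MHCKO mice 5 chains passed after doxorubicin (7.81% of all tested genes), 1 passed between genotypes after doxorubicin (3.11%), and 9 passed in each average (16.4% for doxorubicin over both genotypes and 13.5% for genotype over both treatments). Without replicate 3, 8 of 37 chains passed in A17fl/fl mice (15.3%), 3 in A17α-MHCKO mice (7.42%), 9 between genotypes after saline (14.9%), 0 between genotypes after doxorubicin (3.19%), 2 for the interaction (9.69%), and 9 in each average (14.2% and 9.87%).

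Without A17fl/fl + NS replicate 1, 37 chains entered the tests. In A17α-MHCKO mice, where the library entered through the shared scaling and estimate of the spread, 13 chains were lower after doxorubicin and none higher, against 11.5% of all tested genes (4.88% lower). They were 5 of the 6 type IV chains (Col4a1, Col4a3, Col4a4, Col4a5 and Col4a6), 4 fibrillar chains (Col1a2, Col3a1, Col5a2 and Col5a3), and Col6a6, Col14a1, Col18a1 and Col28a1. The smallest adjusted p among them was 0.134 (edgeR), for Col4a5. A fit on the 6 A17α-MHCKO libraries alone gave 14 chains, all lower, against 10.8% of all tested genes (5.34% lower), and a fit on the 6 doxorubicin libraries gave 7 chains lower in A17α-MHCKO, against 7.19% (3.9% lower). In the model of the 11 libraries, 3 chains were higher after doxorubicin in A17fl/fl mice (10.2% of all tested genes passed, 4.63% higher) and 6 were higher in A17α-MHCKO after saline (10.2%, with 4.58% higher). None passed between genotypes after doxorubicin (5.85%), and 7 had a more negative response in A17α-MHCKO (7.13%, with 3.3% more negative). Averaged over genotypes 5 chains passed (15% of all tested genes), and averaged over treatments 1 (10.3%).

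The groups can also be compared by whether their libraries overlap. In A17α-MHCKO mice, 9 of 35 chains had all 3 doxorubicin libraries below all 3 saline libraries, against 7.79% of all tested genes, and none the reverse (9.16%). These were Col3a1, Col4a1, Col4a3, Col4a4, Col4a5, Col5a2, Col5a3, Col6a6 and Col18a1. After doxorubicin, 10 chains had all 3 A17α-MHCKO libraries below all 3 A17fl/fl libraries, against 7.13% of all tested genes, and again none the reverse (6.96%). They were Col1a1, Col1a2, Col4a4, Col5a2, Col6a1, Col6a2, Col6a3, Col6a6, Col8a2 and Col22a1. Both counts use the A17α-MHCKO + DOX libraries. Between the same A17α-MHCKO groups, 3 of 8 cardiomyocyte markers passed, all higher after doxorubicin (3.97% of all tested genes were), and 0 of 10 fibroblast markers passed, 8 with a negative change. The 10 fibroblast markers summed to 3139 to 3622 CPM in A17α-MHCKO + NS and 2580 to 2904 in A17α-MHCKO + DOX without overlap, the 8 cardiomyocyte markers to 32205 to 40495 and 39176 to 41102, and the 8 endothelium markers to 1773 to 2173 and 1967 to 2215. Myl2, the ventricular myosin light chain, rose there by 0.95 (SE 0.28, unadjusted p = 0.00542, adjusted p = 0.695). The part of these markers in the collagen values was not tested. In A17fl/fl mice Col25a1 and Col26a1 were above saline without overlap after doxorubicin, against 7.15% of all tested genes, and no chain was below it (6.11%). After saline Col4a5, Col26a1 and Col28a1 were higher in A17α-MHCKO without overlap (5.52%), and none was lower (5.34%). Without A17fl/fl + NS replicate 1, 8 chains were above saline in A17fl/fl mice (14.7%) and none below it (13.4%), and 7 were higher (13%) and 1 lower (12.3%) in A17α-MHCKO after saline.

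**Figure D3:**
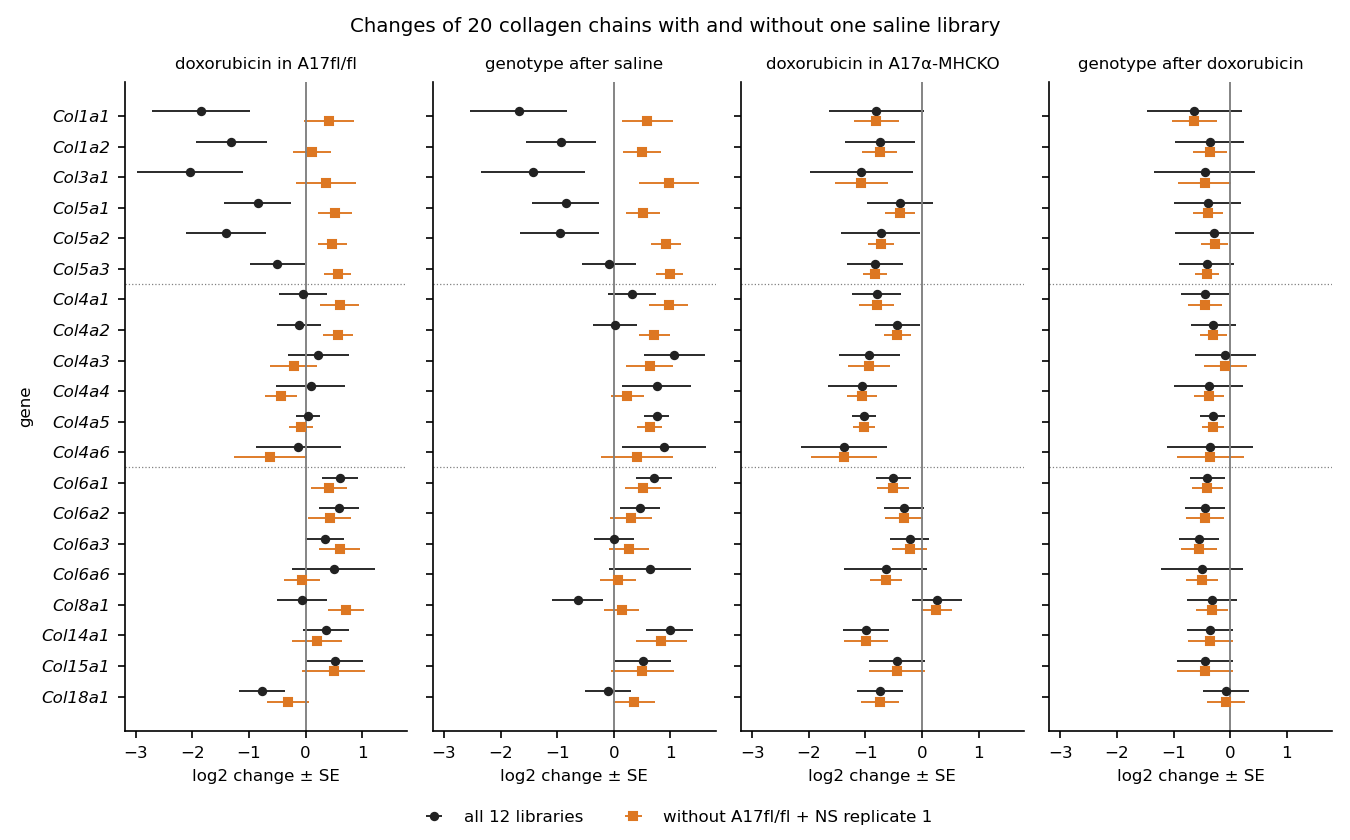
Log2 changes with their standard errors for 20 collagen chains in 4 comparisons, from all 12 libraries (black circles) and without A17fl/fl + NS replicate 1 (orange squares); dotted lines part the fibrillar, type IV and other chains. In the comparisons with saline-treated A17fl/fl mice Col1a1, Col3a1 and Col5a2 move from below 0 to above 0 when that library is left out, and in the other comparisons their values stay in place with shorter error bars.

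Col1a1, the main chain of type I collagen, had 2262, 278 and 85.0 CPM in A17fl/fl + NS, 219, 253 and 257 in A17fl/fl + DOX, 168, 379 and 274 in A17α-MHCKO + NS and 105, 190.2 and 175 in A17α-MHCKO + DOX. The saline A17fl/fl group enclosed all other libraries, and the 3 A17α-MHCKO + DOX libraries lay below the 3 A17fl/fl + DOX libraries. Its log2 change after doxorubicin in A17fl/fl mice was -1.85 (SE 0.86, unadjusted p = 0.054, adjusted p = 0.474) with all libraries and 0.42 (SE 0.44, unadjusted p = 0.362) without A17fl/fl + NS replicate 1. In A17α-MHCKO mice it was -0.80 (SE 0.84, unadjusted p = 0.359) and -0.80 (SE 0.39, unadjusted p = 0.0649) in the same fits. Between genotypes after doxorubicin it was -0.63 (SE 0.84, unadjusted p = 0.466), and on the 6 doxorubicin libraries alone it passed (unadjusted p = 0.0132).

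Col3a1, the type III chain, had 3801, 438 and 109.7 CPM in A17fl/fl + NS, 364, 401 and 289 in A17fl/fl + DOX, 365, 801 and 449 in A17α-MHCKO + NS and 139.6, 348 and 282 in A17α-MHCKO + DOX. All A17α-MHCKO libraries after doxorubicin were below those after saline. It was the only fibrillar chain that passed in A17fl/fl mice, lower after doxorubicin by a log2 change of -2.04 (SE 0.93, unadjusted p = 0.0495, adjusted p = 0.466), and the change was 0.36 (SE 0.52, unadjusted p = 0.507) without A17fl/fl + NS replicate 1. The call was kept in 2 of the 12 fits that left out a library, those without A17fl/fl + NS replicate 2 or 3. In A17α-MHCKO mice its log2 change was -1.07 (SE 0.91, unadjusted p = 0.262) with all libraries and -1.07 (SE 0.47, unadjusted p = 0.0432, adjusted p = 0.428) without A17fl/fl + NS replicate 1.

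Col1a2, the partner of Col1a1 in type I collagen, had 1335, 303 and 139.8 CPM in A17fl/fl + NS, 231, 235 and 250.3 in A17fl/fl + DOX, 213, 433 and 289.7 in A17α-MHCKO + NS and 135, 217 and 205 in A17α-MHCKO + DOX. Its highest and lowest levels among the saline A17fl/fl libraries were again in replicates 1 and 3. Averaged over genotypes, 3 fibrillar chains were lower after doxorubicin, with log2 changes of -1.56 (SE 0.65, unadjusted p = 0.0344, adjusted p = 0.438) for Col3a1, -1.03 (SE 0.44, unadjusted p = 0.0381) for Col1a2 and -1.33 (SE 0.60, unadjusted p = 0.0484) for Col1a1. In the fit without A17fl/fl + NS replicate 1 the same changes were -0.36, -0.32 and -0.19, and none of the 3 passed.

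The type V chains form the core of type I fibrils. Col5a2 had 437, 60.4 and 35.7 CPM in A17fl/fl + NS, 68.2, 67.2 and 65.1 in A17fl/fl + DOX, 67.6, 108 and 98.9 in A17α-MHCKO + NS and 40.2, 65.0 and 60.2 in A17α-MHCKO + DOX. The A17α-MHCKO + DOX libraries lay below those of both A17α-MHCKO + NS and A17fl/fl + DOX. Its log2 change after doxorubicin in A17α-MHCKO mice was -0.73 (SE 0.70, unadjusted p = 0.316, adjusted p = 0.884) with all libraries and -0.73 (SE 0.23, unadjusted p = 0.00873, adjusted p = 0.328) without A17fl/fl + NS replicate 1. Without that library Col5a2 was also higher in A17α-MHCKO after saline, by 0.93 (SE 0.26, unadjusted p = 0.00471, adjusted p = 0.248), and its response differed between genotypes by -1.21 (SE 0.35, unadjusted p = 0.00527, adjusted p = 0.517). Col5a1 (382 CPM in A17fl/fl + NS replicate 1 and 44.4 to 119.6 elsewhere) passed in none of the comparisons with all libraries. Col5a3, the third type V chain (92.3 CPM and 16.4 to 46.7), had a change after doxorubicin in A17α-MHCKO mice of -0.83 (SE 0.49, unadjusted p = 0.116, adjusted p = 0.824) with all libraries and -0.83 (SE 0.21, unadjusted p = 0.00228, adjusted p = 0.241) without A17fl/fl + NS replicate 1. The remaining tested fibrillar chains were low, with Col27a1 at 4.94 to 13.6 CPM, Col11a2 at 0.814 to 4.85 and Col11a1 at 0 to 1.73.

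Over the 9 tested fibrillar chains, the median log2 change after doxorubicin was -0.85 in A17fl/fl mice (1 positive, 8 negative) and 0.42 without A17fl/fl + NS replicate 1 (9 positive). Between genotypes after saline it was -0.85 (2 positive, 7 negative) and 0.59 (9 positive). In A17α-MHCKO mice after doxorubicin it was -0.75 (8 negative) in both fits, and between genotypes after doxorubicin -0.40 (9 negative) in both.

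The sequence upstream of Col3a1, a fibrillar chain without overlap between the A17α-MHCKO groups, is shown as the example of its class. The 250 bases before the RefSeq start (GRCm38.p6, chr1:45311288-45311537, plus strand) hold 1 TATAAA, printed in capitals.
Col3a1: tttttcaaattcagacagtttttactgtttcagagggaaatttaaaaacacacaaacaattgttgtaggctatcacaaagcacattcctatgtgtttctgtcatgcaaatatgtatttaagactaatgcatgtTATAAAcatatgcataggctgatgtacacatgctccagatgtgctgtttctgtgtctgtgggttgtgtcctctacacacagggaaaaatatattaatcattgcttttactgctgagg
The match begins 117 bases before the start. TATAAA, searched on both strands, was in 5 of the 38 windows of collagen genes (35 of the 44 genes had an entry) and in 12.4% of 32851 windows of this length over all genes. In the gene order Col3a1 lies beside Col5a2 on chromosome 1 with no protein-coding gene between them.

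Among the type IV chains, Col4a5 gave the smallest p. It encodes the α5 chain, its human counterpart is mutated in X-linked Alport syndrome, and it lies beside Col4a6 on chromosome X. Col4a5 had 34.6, 51.1 and 40.0 CPM in A17fl/fl + NS, 45.5, 40.1 and 44.2 in A17fl/fl + DOX, 54.8, 80.3 and 77.1 in A17α-MHCKO + NS and 25.4, 37.6 and 41.6 in A17α-MHCKO + DOX. The 3 saline-treated A17α-MHCKO libraries were above all 9 others, and the other 3 groups overlapped. Its log2 change after doxorubicin was -1.02 (SE 0.22, unadjusted p = 0.000555, adjusted p = 0.638) in A17α-MHCKO mice and 0.05 (SE 0.21, unadjusted p = 0.833) in A17fl/fl mice. The responses differed by -1.07 (SE 0.30, unadjusted p = 0.00451, adjusted p = 0.828). The gene was higher in A17α-MHCKO after saline by 0.76 (SE 0.21, unadjusted p = 0.00447, adjusted p = 0.317). Averaged over genotypes it was lower after doxorubicin, with a log2 change of -0.49 (SE 0.15, unadjusted p = 0.00778, adjusted p = 0.343). Each of these calls was kept in all 12 fits that left out a library, that without A17fl/fl + NS replicate 1 included, with changes of -1.17 to -0.84 for doxorubicin in A17α-MHCKO mice, 0.63 to 0.92 for genotype after saline and -1.24 to -0.88 for the interaction. By DESeq2 the change after doxorubicin in A17α-MHCKO mice had an adjusted p = 0.0111. Between genotypes after doxorubicin its change was -0.31 (SE 0.21, unadjusted p = 0.173).

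The windows upstream of Col4a5 and Col4a6 are shown because these neighbours, with no protein-coding gene between them, are read in opposite directions. For Col4a5 (GRCm38.p6, chrX:141475169-141475384, plus strand), 216 bases are given, since 34 bases that lie in an annotated exon were left out, with CCAAT in capitals. For Col4a6 (chrX:141474077-141474326, minus strand), 250 bases are given, with CCGCCC, the reverse complement of GGGCGG, in capitals.
Col4a5: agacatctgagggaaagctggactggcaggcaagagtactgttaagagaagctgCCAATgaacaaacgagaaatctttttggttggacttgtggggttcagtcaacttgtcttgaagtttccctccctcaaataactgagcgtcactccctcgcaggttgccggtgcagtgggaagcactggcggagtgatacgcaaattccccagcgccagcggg
Col4a6: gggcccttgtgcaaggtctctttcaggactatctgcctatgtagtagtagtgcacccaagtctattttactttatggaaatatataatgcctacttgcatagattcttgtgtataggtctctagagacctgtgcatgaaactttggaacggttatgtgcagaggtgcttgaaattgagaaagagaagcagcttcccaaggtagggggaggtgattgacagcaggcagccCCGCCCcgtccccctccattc
CCAAT begins 196 bases before the Col4a5 start, counted with the 34 left-out bases, which lie between the printed end and the start. CCGCCC begins 21 bases before the Col4a6 start. On either strand, CCAAT was in 33.8% of all windows and in 13 of the 38 collagen windows, and GGGCGG in 32.7% and in 22. These are letter matches only.

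Col4a6 itself was low and variable, with 1.04, 12.8 and 2.32 CPM in A17fl/fl + NS, 6.92, 3.39 and 4.47 in A17fl/fl + DOX, 4.44, 16.3 and 9.12 in A17α-MHCKO + NS and 2.71, 3.57 and 5.28 in A17α-MHCKO + DOX. Its groups overlapped, and the change after doxorubicin in A17α-MHCKO mice was -1.37 (SE 0.76, unadjusted p = 0.0967, adjusted p = 0.812). Col4a4, whose product joins the α3 and α5 chains, had 1.5, 23.5 and 9.90 CPM in A17fl/fl + NS, 12.6, 12.6 and 11.9 in A17fl/fl + DOX, 15.6, 20.8 and 22.7 in A17α-MHCKO + NS and 8.06, 10.3 and 10.1 in A17α-MHCKO + DOX. The A17α-MHCKO + DOX libraries lay below both groups they are compared with. Its change after doxorubicin in A17α-MHCKO mice was -1.05 (SE 0.61, unadjusted p = 0.114, adjusted p = 0.824) with all libraries and -1.05 (SE 0.26, unadjusted p = 0.00197, adjusted p = 0.234) without A17fl/fl + NS replicate 1. Col4a3, its neighbour on chromosome 1, had 7.78, 9.24 and 10.2 CPM in A17α-MHCKO + NS and 2.58, 7.67 and 4.07 in A17α-MHCKO + DOX, a change of -0.93 (SE 0.53, unadjusted p = 0.109).

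The abundant network chains Col4a1 and Col4a2 are neighbours on chromosome 8. Col4a1 had 1109, 499.9 and 325 CPM in A17fl/fl + NS, 589, 695 and 600.5 in A17fl/fl + DOX, 834, 761 and 827 in A17α-MHCKO + NS and 244, 717 and 429 in A17α-MHCKO + DOX. The A17α-MHCKO groups did not overlap, with doxorubicin lower, while the A17fl/fl groups did. The change after doxorubicin in A17α-MHCKO mice was -0.80 (SE 0.43, unadjusted p = 0.0869, adjusted p = 0.807) with all libraries and -0.80 (SE 0.30, unadjusted p = 0.0222, adjusted p = 0.373) without A17fl/fl + NS replicate 1. Without that library Col4a1 was higher in A17α-MHCKO after saline by 0.97 (SE 0.35, unadjusted p = 0.0172, adjusted p = 0.379), and its response differed between genotypes by -1.41 (SE 0.46, unadjusted p = 0.0104, adjusted p = 0.554). Col4a2 had 855, 335 and 266 CPM in A17fl/fl + NS, 405, 473 and 464 in A17fl/fl + DOX, 498, 471 and 512 in A17α-MHCKO + NS and 218, 509 and 367 in A17α-MHCKO + DOX. Its A17α-MHCKO groups overlapped, with a change of -0.44 (SE 0.40, unadjusted p = 0.291) after doxorubicin. Over the 6 type IV chains, all 6 changes after doxorubicin in A17α-MHCKO mice were negative, with a median of -0.97, and all 6 genotype changes after saline were positive, with a median of 0.76. In A17fl/fl mice 3 were positive and 3 negative, with a median of 0.00.

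**Figure D4:**
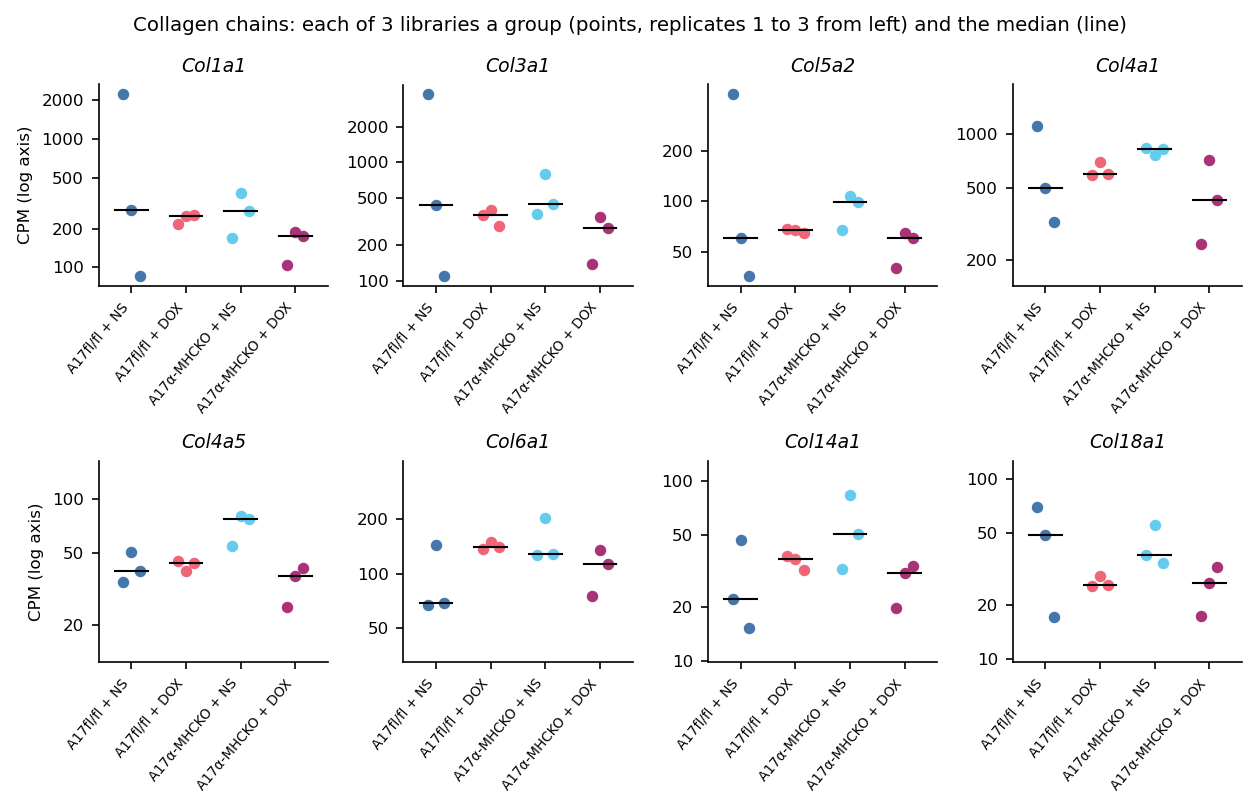
CPM (log axes, each panel with its own range) of 8 collagen chains in the 4 groups; points are libraries, replicates 1 to 3 from left, and lines are medians. The 3 A17α-MHCKO + NS points for Col4a5 (54.8 to 80.3 CPM) lie above all others, and for Col1a1, Col3a1 and Col5a2 the A17fl/fl + NS group spans the range of the other groups.

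Type VI chains are the subunits of beaded filaments at the edge of the basement membrane. Col6a1 had 67.3, 144 and 69.2 CPM in A17fl/fl + NS, 136, 149.6 and 141 in A17fl/fl + DOX, 127, 203 and 129 in A17α-MHCKO + NS and 75.3, 135 and 113 in A17α-MHCKO + DOX. In A17fl/fl + NS replicates 1 and 3 were about level, and replicate 2 lay within the other groups. Col6a1 was higher in A17α-MHCKO after saline by 0.71 (SE 0.31, unadjusted p = 0.0449, adjusted p = 0.479), a call kept in 5 of 12 fits that left out a library. Its doxorubicin response differed by -1.11 (SE 0.44, unadjusted p = 0.0288, adjusted p = 0.828), from 0.61 (SE 0.31, unadjusted p = 0.0793) in A17fl/fl mice to -0.51 (SE 0.31, unadjusted p = 0.135) in A17α-MHCKO mice, and this call was kept in 7 of 12 fits. Neither passed without A17fl/fl + NS replicate 1, with values of 0.52 (SE 0.32, unadjusted p = 0.13) and -0.92 (SE 0.42, unadjusted p = 0.0522). Col6a2, its neighbour on chromosome 10, had an interaction of -0.91 (SE 0.50, unadjusted p = 0.0966), and Col6a3, the longest chain of the helix, one of -0.56 (SE 0.49, unadjusted p = 0.284). After doxorubicin all 4 tested type VI chains (Col6a1, Col6a2, Col6a3 and Col6a6) had their 3 A17α-MHCKO libraries below the 3 A17fl/fl libraries. Of all tested genes 7.13% were lower there without overlap, and these 4 chains are among the 10 counted above. None of their changes passed with all libraries: they were -0.40 (SE 0.31, unadjusted p = 0.225), -0.45 (SE 0.36, unadjusted p = 0.232), -0.55 (SE 0.35, unadjusted p = 0.145) and -0.50 (SE 0.73, unadjusted p = 0.507).

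Of the multiplexins, whose C-terminal fragments are known as restin and endostatin, Col18a1 had 70.0, 48.9 and 17.2 CPM in A17fl/fl + NS, 25.4, 28.9 and 25.7 in A17fl/fl + DOX, 37.6, 55.5 and 33.9 in A17α-MHCKO + NS and 17.4, 26.3 and 32.5 in A17α-MHCKO + DOX. The A17α-MHCKO + DOX libraries lay below the A17α-MHCKO + NS libraries. Averaged over genotypes the level was lower after doxorubicin by a log2 change of -0.75 (SE 0.29, unadjusted p = 0.0232, adjusted p = 0.409), with -0.77 in A17fl/fl mice and -0.74 in A17α-MHCKO mice. This call was lost without A17fl/fl + NS replicate 1, where the change was -0.53 (SE 0.25, unadjusted p = 0.0585), and also without A17α-MHCKO + NS replicate 2 and without A17α-MHCKO + DOX replicate 1. Col15a1, the other multiplexin, ran from 32.7 CPM in A17fl/fl + NS replicate 3 to 209 in A17α-MHCKO + NS replicate 2, with changes after doxorubicin of 0.52 (SE 0.50, unadjusted p = 0.319) in A17fl/fl mice and -0.44 (SE 0.49, unadjusted p = 0.39) in A17α-MHCKO mice.

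Col14a1, a fibril-associated chain that sits on type I fibrils, had 22, 46.7 and 15.3 CPM in A17fl/fl + NS, 38.2, 36.9 and 32.2 in A17fl/fl + DOX, 32.5, 83.2 and 50.6 in A17α-MHCKO + NS and 19.6, 31.0 and 33.5 in A17α-MHCKO + DOX. The A17α-MHCKO groups overlapped in 1 library pair. It fell after doxorubicin in A17α-MHCKO mice by a log2 change of -0.98 (SE 0.41, unadjusted p = 0.0342, adjusted p = 0.756), was higher in A17α-MHCKO after saline by 0.99 (SE 0.41, unadjusted p = 0.0338, adjusted p = 0.447) and differed in its response by -1.34 (SE 0.58, unadjusted p = 0.0399, adjusted p = 0.828). Without A17α-MHCKO + NS replicate 2 none of these passed, and the changes were -0.57, 0.58 and -0.94. Without A17fl/fl + NS replicate 1 the first was kept (-0.99) and the others were lost (0.84 and -1.19). Col12a1, of the same family, passed in no comparison of the filtered edgeR model of all libraries. It passed between genotypes after saline with DESeq2 (unadjusted p = 0.0401) and with no filter on low counts (unadjusted p = 0.0404). Between genotypes over both treatments it passed with DESeq2 (unadjusted p = 0.0417) and with no filter (unadjusted p = 0.0404). In the fit on the 6 doxorubicin libraries it also passed between genotypes (unadjusted p = 0.0295). Its genotype change after saline was -2.39 (SE 1.11, unadjusted p = 0.0543, adjusted p = 0.506) with all libraries and 0.55 (SE 0.73, unadjusted p = 0.467) without A17fl/fl + NS replicate 1. Col16a1 and Col20a1 passed in no comparison with all libraries, nor did Col7a1 (3 to 24 counts a library), Col9a2 (0 to 17), Col13a1 (6 to 50) and Col23a1 (48 to 296). Col22a1, known from myotendinous junctions, had 1.13 to 1.66 CPM in A17fl/fl + DOX and 0.755 to 1.09 in A17α-MHCKO + DOX, a change of -0.58 (SE 0.43, unadjusted p = 0.211).

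Col8a1, a short-chain network collagen of vessel walls, had 99.4, 26.7 and 36.4 CPM in A17fl/fl + NS, 51.8, 51.2 and 52.8 in A17fl/fl + DOX, 27.1, 43.2 and 33.9 in A17α-MHCKO + NS and 23.1, 58.2 and 43.4 in A17α-MHCKO + DOX. The highest of the 12 was A17fl/fl + NS replicate 1, and the groups overlapped. Its changes after doxorubicin were -0.06 (SE 0.44, unadjusted p = 0.89) in A17fl/fl mice and 0.26 (SE 0.44, unadjusted p = 0.571) in A17α-MHCKO mice. Without A17fl/fl + NS replicate 1 it was higher after doxorubicin in A17fl/fl mice by 0.71 (SE 0.32, unadjusted p = 0.0449, adjusted p = 0.483). Its partner Col8a2 had 0.115, 4.31 and 0.313 CPM in A17fl/fl + NS, 3.08, 3.08 and 6.03 in A17fl/fl + DOX, 1.36, 5.4 and 2.15 in A17α-MHCKO + NS and 1.70, 1.43 and 2.43 in A17α-MHCKO + DOX. Saline and doxorubicin overlapped in both genotypes. The A17α-MHCKO + DOX libraries lay below A17fl/fl + DOX without overlap and the log2 change was -1.13 (SE 0.92, unadjusted p = 0.244).

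The other chains that passed were rare. Col26a1 had 0.289, 0.180 and 0 CPM in A17fl/fl + NS, 0.440, 0.492 and 1.18 in A17fl/fl + DOX, 1.05, 0.907 and 0.639 in A17α-MHCKO + NS and 0.566, 0.130 and 0.911 in A17α-MHCKO + DOX, which is 0 to 21 counts a library. It was higher after doxorubicin in A17fl/fl mice by 2.10 (SE 0.84, unadjusted p = 0.0296, adjusted p = 0.432) and in A17α-MHCKO after saline by 2.40 (SE 0.83, unadjusted p = 0.0145, adjusted p = 0.361), and its responses differed by -2.78 (SE 1.12, unadjusted p = 0.0295, adjusted p = 0.828). These calls were kept in 9, 12 and 7 of 12 fits that left out a library, and without A17fl/fl + NS replicate 1 the changes were 2.85, 3.14 and -3.52, which all passed. Col25a1, a transmembrane collagen, had 3 to 24 counts a library and rose after doxorubicin in A17fl/fl mice by 1.29 (SE 0.55, unadjusted p = 0.0385, adjusted p = 0.448), a call that 6 of 12 fits kept and that was lost without A17fl/fl + NS replicate 1 (0.97, unadjusted p = 0.127). Col28a1, which is known from peripheral nerve, had 0.923, 2.51 and 3.20 CPM in A17fl/fl + NS and 6.61, 3.76 and 7.79 in A17α-MHCKO + NS, a difference of 1.45 (SE 0.56, unadjusted p = 0.0256, adjusted p = 0.422) without overlap, which 9 of 12 fits kept and which did not pass without A17fl/fl + NS replicate 1 (1.07, unadjusted p = 0.0687). The fitted changes of Col26a1 include a library with no count and depend on how the fit treats it.

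Levels of chains from 1 trimer were compared across the 12 libraries. Pearson's r of log2 CPM was 0.989 for Col1a1 with Col1a2 (Spearman's rho 0.986), 0.962 for Col4a1 with Col4a2 (rho 0.944), 0.957 for Col6a1 with Col6a2 (rho 0.937) and 0.967 for Col5a1 with Col5a2 (rho 0.783). For Col1a1 with Col3a1, which belong to different trimers, r was 0.978 (rho 0.874). The sixth pair, Col8a1 with Col8a2, gave r = -0.261 (rho -0.0210). Permutation p-values of r, two-sided over 100000 resamples and adjusted over the 6 pairs, were 0.000264 or smaller for the first 5 pairs and 0.412 for the sixth, and those of rho were 0.00461 or smaller and 0.949. The resamples moved all 12 libraries freely, so that differences between groups enter these p-values. On deviations from the group means, r in the same order was 0.996, 0.980, 0.979, 0.982, 0.987 and -0.400. Without A17fl/fl + NS replicate 1 these were 0.983, 0.978, 0.991, 0.935, 0.947 and -0.0116. With the 2 libraries farthest from the median of the first chain left out, r was 0.963, 0.909, 0.930 and 0.799 for the first 4 pairs, 0.901 for Col1a1 with Col3a1 and 0.212 for Col8a1 with Col8a2. A17fl/fl + NS replicate 1 was among those left out for every pair but Col4a1 with Col4a2. The ratio of Col1a1 to Col1a2 in FPKM was 3.96 in A17fl/fl + NS replicate 1, 1.42 in A17fl/fl + NS replicate 3 and 1.82 to 2.51 in the rest. The ratio of Col4a1 to Col4a2 in FPKM was 1.10 to 1.14 in A17α-MHCKO + NS, above the other 9 libraries (0.763 to 1.02). The ratios were not tested.

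Genes that make, bind or accompany collagens were taken from lists of 24 biosynthesis enzymes and chaperones, 11 receptors, 12 fibril-associated proteoglycans and regulators and 10 basement membrane partners. After doxorubicin in A17α-MHCKO mice, where 6.42% of all tested genes passed (2.44% lower), 3 of 24 biosynthesis genes did so (1 higher, 2 lower), 2 of 10 tested receptors (both lower), 0 of 11 tested proteoglycans and 2 of 10 basement membrane partners (both lower). All 11 tested proteoglycans and all 10 basement membrane partners had negative changes, with medians of -0.38 and -0.21 against 0.00 for all tested genes. Between genotypes after doxorubicin, 21 of 24 biosynthesis genes, 9 of 10 receptors, 8 of 11 proteoglycans and 10 of 10 basement membrane partners had negative changes, and 2, 0, 0 and 1 passed, against 2.7% of all tested genes. After saline 7 of 24 biosynthesis genes passed between genotypes (2 higher, 5 lower in A17α-MHCKO), against 10.1% of all tested genes (6.53% lower). The 1 receptor, 1 proteoglycan and 1 basement membrane partner that passed there are near that share of their lists. In A17fl/fl mice after doxorubicin 5 of 24 biosynthesis genes passed (1 higher, 4 lower), 1 of 10 receptors and 1 of 10 basement membrane partners (both higher), against 10.7% of all tested genes. Without A17fl/fl + NS replicate 1 the 2 counts of biosynthesis genes, after saline and in A17fl/fl mice, were 3 and 2. In that fit 10.2% of all tested genes passed in each comparison.

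P4ha3, a catalytic subunit of collagen prolyl 4-hydroxylase, which stabilises the triple helix, had 5.25, 0.359 and 0.0626 CPM in A17fl/fl + NS and 0.629, 0.80 and 0.435 in A17fl/fl + DOX, against 90.1, 106 and 170.1 in A17α-MHCKO + NS and 79.1, 124 and 114 in A17α-MHCKO + DOX. The genotypes did not overlap. The log2 difference over both treatments was 6.69 (SE 0.67, unadjusted p = 5.66e-07, adjusted p = 0.00456) and 8.25 (SE 0.33, unadjusted p = 3.33e-11, adjusted p = 5.46e-07) without A17fl/fl + NS replicate 1. Its change after doxorubicin was -1.61 (unadjusted p = 0.134) in A17fl/fl mice and -0.21 (unadjusted p = 0.766) in A17α-MHCKO mice. P4ha3 lies on chromosome 7, with 3 protein-coding genes between it and Pold3. The cause of the genotype difference was not tested. In this design Adam17 loss cannot be told apart from other differences that go with the genotype, such as the Cre transgene or a difference at the P4ha3 locus.

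P4ha2, another catalytic subunit of the same enzyme, had 68.9, 39.6 and 35.1 CPM in A17fl/fl + NS, 30.2, 29.7 and 30.9 in A17fl/fl + DOX, 28.9, 25 and 28.9 in A17α-MHCKO + NS and 26.2, 30.5 and 28.0 in A17α-MHCKO + DOX. It was lower in A17α-MHCKO after saline, with a log2 change of -0.80 (SE 0.21, unadjusted p = 0.00315, adjusted p = 0.313), and after doxorubicin in A17fl/fl mice, with -0.66 (SE 0.21, unadjusted p = 0.00975, adjusted p = 0.372). With A17fl/fl + NS replicate 1 taken out, both passed with smaller changes of -0.44 (SE 0.12, unadjusted p = 0.00324) and -0.31 (SE 0.12, unadjusted p = 0.0252). Colgalt1, which adds galactose to hydroxylysine, had 66.3 to 85.9 CPM in A17fl/fl + NS, 72.5 to 76.6 in A17fl/fl + DOX, 46.9 to 48.5 in A17α-MHCKO + NS and 51.7 to 74.1 in A17α-MHCKO + DOX. It was lower without overlap in A17α-MHCKO after saline, with a log2 change of -0.68 (SE 0.15, unadjusted p = 0.000695, adjusted p = 0.223) and of -0.59 in the fit of 11 libraries, and rose after doxorubicin in A17α-MHCKO mice by 0.43 (SE 0.15, unadjusted p = 0.0136, adjusted p = 0.705).

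Adamts3, a procollagen N-proteinase, had 2.31, 3.35 and 3.20 CPM in A17fl/fl + NS, 5.41, 4.0 and 5.41 in A17fl/fl + DOX, 4.51, 4.15 and 5.64 in A17α-MHCKO + NS and 2.33, 3.31 and 3.28 in A17α-MHCKO + DOX. Saline and doxorubicin libraries did not overlap in either genotype, and their order was reversed between the genotypes. Its response was 0.74 (SE 0.24, unadjusted p = 0.0109, adjusted p = 0.378) in A17fl/fl mice and -0.68 (SE 0.24, unadjusted p = 0.0176, adjusted p = 0.725) in A17α-MHCKO mice, a difference of -1.42 (SE 0.34, unadjusted p = 0.00162, adjusted p = 0.828). In the fit of 11 libraries the first change was 0.59 (SE 0.25, unadjusted p = 0.0359) and the difference -1.27 (SE 0.33, unadjusted p = 0.0027). Of the basement membrane partners, Agrn (agrin, a heparan sulphate proteoglycan) had 45, 67.1 and 76.6 CPM in A17fl/fl + NS, 79.5, 93.1 and 98.9 in A17fl/fl + DOX, 114, 98.7 and 108 in A17α-MHCKO + NS and 51.2, 92.2 and 78.6 in A17α-MHCKO + DOX. It too was separate within each genotype, rising after doxorubicin in A17fl/fl mice by 0.53 (SE 0.23, unadjusted p = 0.0434, adjusted p = 0.455) and falling in A17α-MHCKO mice by a log2 change of -0.53 (SE 0.23, unadjusted p = 0.0411, adjusted p = 0.767), a difference of -1.06 (SE 0.33, unadjusted p = 0.00764, adjusted p = 0.828). In the fit of 11 libraries the first change did not pass, with 0.33 (SE 0.21, unadjusted p = 0.143), and the difference was -0.86 (SE 0.28, unadjusted p = 0.0102). Nid1, which links laminin to type IV collagen, had 277, 273 and 241 CPM in A17α-MHCKO + NS and 148, 228 and 193 in A17α-MHCKO + DOX, a log2 change of -0.48 (SE 0.16, unadjusted p = 0.0128, adjusted p = 0.705). Itga11, the α chain of a fibrillar collagen receptor on fibroblasts, had 6.61, 10.1 and 7.56 CPM in A17α-MHCKO + NS and 4.22, 5.59 and 4.43 in A17α-MHCKO + DOX, a log2 change of -0.77 (SE 0.25, unadjusted p = 0.00939, adjusted p = 0.705).

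The other listed genes with the smallest p-values follow. Plod2, a lysyl hydroxylase, fell after doxorubicin in A17fl/fl mice by a log2 change of -0.82 (SE 0.28, unadjusted p = 0.0149, adjusted p = 0.407), a call lost without A17fl/fl + NS replicate 1 (unadjusted p = 0.0843), and Adamts2, another procollagen N-proteinase, fell in A17α-MHCKO mice by -0.71 (SE 0.31, unadjusted p = 0.0437). Averaged over genotypes Mia3, which helps load procollagen for export, was at -0.24 (SE 0.09, unadjusted p = 0.0247) and the prolyl 3-hydroxylase gene P3h3 at -0.48 (SE 0.19, unadjusted p = 0.0295), and in the fit of 11 libraries Mia3 was at -0.24 (unadjusted p = 0.0268) and P3h3, which no longer passed, at -0.27 (unadjusted p = 0.0614). Of the receptors, Itga10 rose after doxorubicin in A17fl/fl mice by 1.3 (SE 0.38, unadjusted p = 0.00544, adjusted p = 0.358), and by 1.06 in the fit of 11 libraries (unadjusted p = 0.0192), and Ddr1, a collagen-binding receptor kinase, fell in A17α-MHCKO mice by -0.38 (SE 0.17, unadjusted p = 0.0399). Of the proteoglycans, Omd was higher in A17α-MHCKO after saline by 1.70 (SE 0.66, unadjusted p = 0.0242, adjusted p = 0.414), and by 1.16 in the fit of 11 libraries (unadjusted p = 0.0224). Bgn (biglycan) was lower after doxorubicin over both genotypes, with -0.46 (SE 0.18, unadjusted p = 0.0244) and with -0.32 in the fit of 11 libraries (unadjusted p = 0.0495). Hspg2 (perlecan, of the basement membrane) was lower in A17α-MHCKO after doxorubicin, with -0.45 (SE 0.20, unadjusted p = 0.0482, adjusted p = 1).

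**Figure D5:**
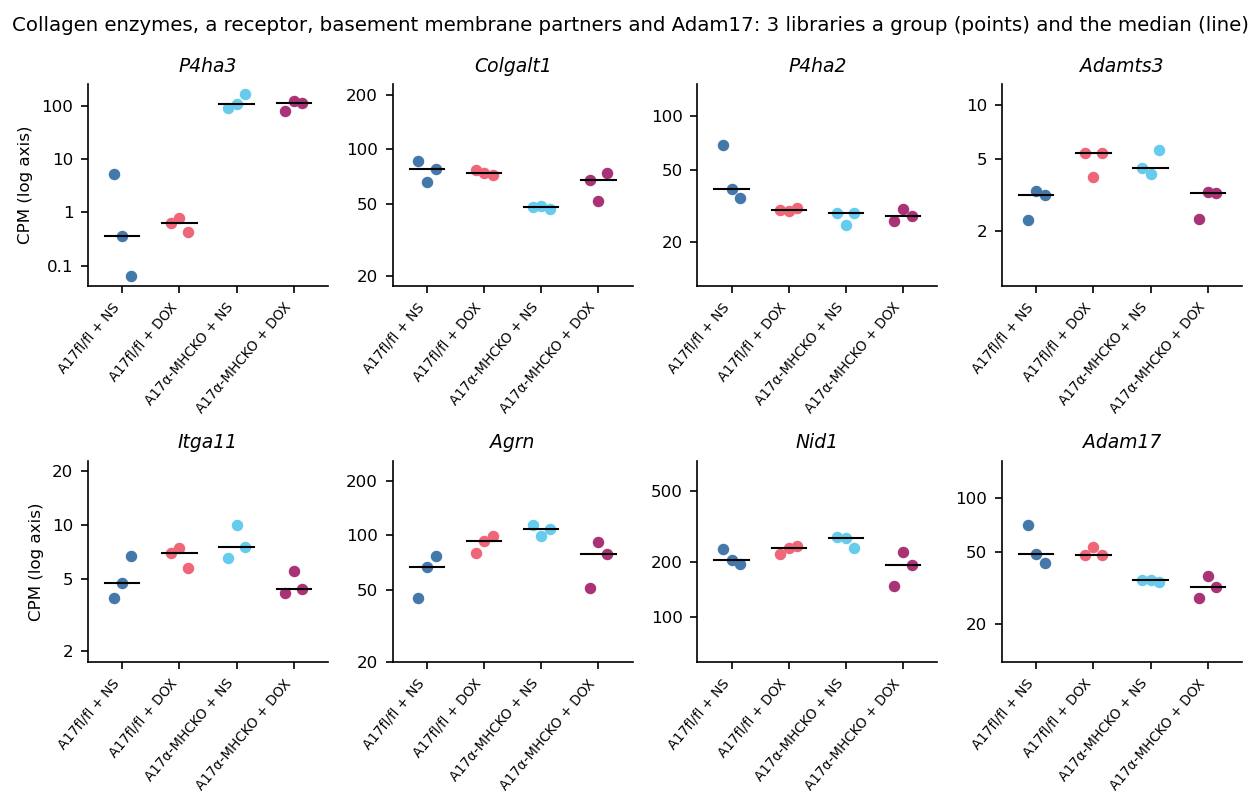
CPM (log axes, each panel with its own range) of 3 collagen-modifying enzymes, the procollagen proteinase Adamts3, the collagen receptor subunit Itga11, the basement membrane genes Agrn and Nid1 and the targeted gene Adam17 in the 4 groups; points are libraries, replicates 1 to 3 from left, and lines are medians. P4ha3 lies at 0.0626 to 5.25 CPM in the A17fl/fl libraries and at 79.1 to 170.1 CPM in the A17α-MHCKO libraries.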

How the data were processed

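RNA of left ventricles from 12 mice was sequenced with a stranded paired-end mRNA kit. Per the labels and the study's methods, the authors used CASAVA 1.8, HISAT2 (GRCm39), SAMtools 1.3.1 and StringTie, and deposited raw counts per gene, together with FPKM values per gene that divide the counts by 1 fixed gene length and by library depth. The count table held no further columns of values. Library totals were 15950717 to 21725076 counts, and the common dispersion between mice was 0.0842, so that counting error adds as much or more for chains with few counts such as Col25a1 and Col26a1.

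Counts were filtered with filterByExpr, which kept 16101 of 53465 genes, scaled by TMM and fitted in 1 quasi-likelihood model of the 4 groups with edgeR 4.0.16 (R 4.3.3), with Benjamini-Hochberg adjustment over all tested genes. A chain passed at an unadjusted p under 0.05, the study's threshold. No unadjusted p is corrected for the 16101 tests. The study's further limits were a log2 change beyond 1 and a mean FPKM above 1. The fit was checked on simulated counts. Alternatives were no filter, at least 10 counts in every library, other scaling, DESeq2 1.42.0, voom with library weights (limma 3.58.1), fits on only the compared groups, a replicate block, and leaving out each library. Correlations used SciPy 1.17.1. Gene order came from an annotation of GRCm38 and promoter windows from RefSeq on GRCm38.p6, another build than that of the counts, so that coordinates are given for the printed windows alone and in that build.

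Collagen members, classes and the other gene lists were chosen with earlier results of these data known. The genes to name were 13 main chains, any chain that passed, chains that failed the filter, up to 3 genes of each other list with the smallest p, and Adam17. Not all of these are printed, nor each in every comparison. Of the cell type markers a log2 change is given for Myl2 alone. Same-numbered libraries did not deviate together (3 of 18 pairs had r above 0.1), so replicate numbers were not taken as pairs.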

Additional observations from a re-analysis of the deposited data

Results flagged for a closer look

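The doxorubicin response of 4 chains differed between A17α-MHCKO and A17fl/fl mice by the interaction test at an unadjusted p under 0.05, and each difference was more negative in A17α-MHCKO. The log2 differences were -1.07 for Col4a5, -1.11 for Col6a1, -2.78 for Col26a1 and -1.34 for Col14a1. No interaction passed after adjustment over all tested genes (edgeR, adjusted p = 0.828 for each of the 4). Groups held 3 libraries, too few to look for single outlying values within a group.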

How the results depend on the processing

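Over the alternatives other than leaving out a library, 350 of the recomputed values kept their direction and side of the threshold, 19 newly passed, 17 no longer passed and 14 turned direction. Over the fits that left out a library these numbers were 602, 20, 79 and 19. The causes were not tested.

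In A17fl/fl mice after doxorubicin, 3 chains passed with the model of all groups, 7 with no filter on low counts, 1 with at least 10 counts in every library, 0 with only the compared groups, 1 under the study's limits and 0 after adjustment. The replicate block and voom gave 3 and 2 chains there, all higher, with Col25a1 the one shared with the first 3. In A17α-MHCKO mice the 2 chains became 5 with the replicate block, 8 with voom (7 lower, Col22a1 higher), 14 with only the compared groups, 1 under the study's limits and 0 after adjustment. Between genotypes after saline the 5 chains became 3, 1 and 0 with only the compared groups, under the limits and after adjustment. After doxorubicin the 0 became 7 with only the compared groups. The 4 interactions became 7 with voom and 0 after adjustment. The 5 chains for doxorubicin over both genotypes became 3 with the replicate block (Col4a5 and Col18a1 lower, Col25a1 higher), 3 with voom (Col4a5 lower, Col8a1 and Col22a1 higher), 3 under the limits and 0 after adjustment, so that the chains and the balance of direction turned with the tool. The 0 chains for genotype over both treatments became 2 with no filter, 1 with DESeq2 and 1 with voom. With only the compared groups, 10.8% of all tested genes passed in A17α-MHCKO mice and 7.19% between genotypes after doxorubicin. Shares for the other alternatives are not given here, so their counts of chains cannot be set beside those of all tested genes.

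With voom, which gives libraries weights, the log2 change after doxorubicin in A17fl/fl mice turned to 0.39 for Col1a1, 0.025 for Col1a2, 0.43 for Col3a1, 0.54 for Col4a1 and 0.45 for Col4a2. In A17α-MHCKO mice Col6a3 turned to 0.017. Genotype after saline turned to 0.46 for Col1a1, 0.30 for Col1a2 and 0.86 for Col3a1, genotype after doxorubicin to 0.0071 for Col18a1, and the interaction to -0.97 for Col1a1, -0.56 for Col1a2 and -1.19 for Col3a1. With the replicate block Col4a1 turned to 0.00905 in A17fl/fl mice. Replicate numbers are shared by name only: 6 of the 12 libraries correlated best with their own number, and same-number pairs had r from -0.0832 to 0.240.

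When each library was left out in turn, the chains that passed numbered 1 to 15 in A17fl/fl mice, 1 to 13 in A17α-MHCKO mice, 3 to 18 between genotypes after saline, 0 to 1 after doxorubicin, 1 to 13 for the interaction, 1 to 9 for doxorubicin over both genotypes and 0 to 9 for genotype over both treatments. In that order, they were 3, 13, 6, 0, 7, 5 and 1 without A17fl/fl + NS replicate 1, 15, 5, 18, 1, 13, 9 and 9 without replicate 2, and 8, 3, 9, 0, 2, 9 and 9 without replicate 3. Of all tested genes 20.8%, 7.81%, 20.1%, 3.11%, 14.3%, 16.4% and 13.5% passed without replicate 2, and 15.3%, 7.42%, 14.9%, 3.19%, 9.69%, 14.2% and 9.87% without replicate 3. Changes in A17fl/fl mice ran from -2.39 to 0.42 for Col1a1, -1.78 to 0.11 for Col1a2, -2.59 to 0.36 for Col3a1, -0.36 to 0.60 for Col4a1 and -0.41 to 0.57 for Col4a2. Those between genotypes after saline ran from -2.21 to 0.59 for Col1a1, -1.39 to 0.49 for Col1a2, -1.98 to 0.98 for Col3a1 and -0.27 to 0.72 for Col4a2. Interactions ran from -1.22 to 1.58 for Col1a1, -0.86 to 1.03 for Col1a2 and -1.43 to 1.52 for Col3a1. In A17α-MHCKO mice the ranges were -0.50 to 0.035 for Col6a2, -0.41 to 0.13 for Col6a3 and -0.063 to 0.55 for Col8a1, and between genotypes after doxorubicin -0.29 to 0.14 for Col18a1. The median of the chains ran from -0.01 to 0.58 in A17fl/fl mice, -0.04 to 0.68 between genotypes after saline, -0.37 to 0.01 for doxorubicin over both genotypes and -0.23 to 0.12 for genotype over both treatments. It ran from -0.75 to -0.24 in A17α-MHCKO mice, -0.49 to -0.20 between genotypes after doxorubicin and -0.96 to -0.44 for the interaction.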
